A study of Mus musculus with 10 samples.

Results

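A group of 9 genes of the switch from glucose to fat as a fuel was followed in dorsal root ganglia, which hold the cell bodies of sensory neurons next to the spinal cord. They are the pyruvate dehydrogenase kinases Pdk1, Pdk2, Pdk3 and Pdk4, the carnitine palmitoyltransferase Cpt1a, the secreted lipase inhibitor Angptl4, the mitochondrial carrier Ucp2, the acyl-CoA thioesterase Acot1 and the acyl-CoA dehydrogenase Acadm. The 9 genes were taken by their symbols from 40481 Ensembl genes in the deposited count table. Each symbol matched 1 Ensembl ID, and all 9 had enough reads to be among the 18401 genes tested.

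One group of 5 libraries came from C57BL/6 mice given oxaliplatin at 10 mg/kg, a platinum chemotherapy known to injure sensory nerves. The other 5 libraries came from C57BL/6 mice given vehicle. Ganglia were taken after 8 weeks of treatment, and the design text says that all samples passed a check of RNA integrity. The labels give neither the age of the mice nor the dosing schedule, nor whether libraries stand for separate animals. The p-values therefore measure only how these samples spread, which may be technical. A library held 52963470 to 60984426 counted reads. The sensory neuron markers Avil, Prph, Isl1, Pou4f1 and Scn10a, with 4 others, summed to 14996 to 16405 CPM (read counts scaled to library size) after oxaliplatin and 16198 to 18443 CPM after vehicle, so the labelled tissue was there in every library. Libraries differed in RNA of tissue next to the ganglion. Oxaliplatin replicate 1 was high in fat cell and muscle markers, while the other oxaliplatin libraries held less muscle RNA than any vehicle library. Those values are set out beside Pdk4. In whole ganglia, fewer cells of a type and less RNA per cell cannot be told apart.

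In a fed cell, the pyruvate dehydrogenase complex turns pyruvate from glucose into acetyl-CoA. The 4 kinases of the Pdk family phosphorylate this complex and shut it. In fasting, cells burn fatty acids, which enter mitochondria through Cpt1a and are shortened by dehydrogenases such as Acadm. Pdk4, Cpt1a, Angptl4 and Acot1 are known targets of the fatty acid receptor PPAR-alpha in mouse liver. Pdk4 and Angptl4 are also known to be switched on by glucocorticoids, and Pdk1 and Angptl4 by low oxygen. Sensory neurons run mainly on glucose.

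Of the 9 genes, Pdk4 rose after oxaliplatin and the other 8 did not pass the test (edgeR quasi-likelihood, with p adjusted over all tested genes by Benjamini-Hochberg and a threshold of 0.05). None was called lower. The share called higher was 11.1%, where 1.27% of all tested genes were called higher and 0.772% lower. With 9 genes that share is a single gene. The median log2 fold change of the 9 was 0.14, and that of all tested genes was 0.01. Acot1 and Angptl4 had the next largest differences, and Acadm had the smallest.

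**Figure D1:**
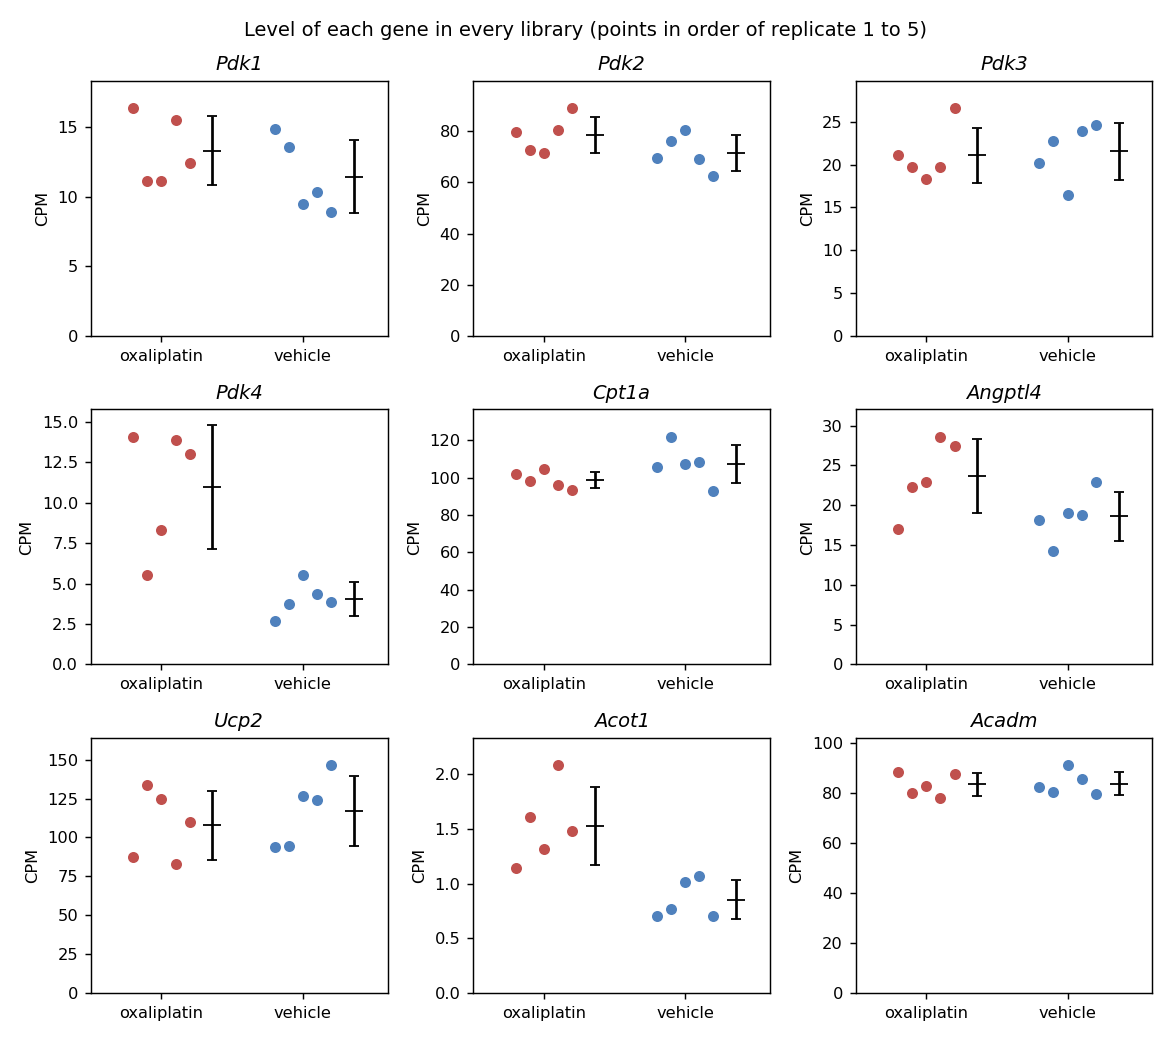
Level of each of the 9 genes in CPM (vertical axis, from 0) in the 5 oxaliplatin libraries (red, left) and the 5 vehicle libraries (blue, right); each point is 1 library in order of replicate, and the black mark and bar are the mean ± SD. For Pdk4, 4 oxaliplatin libraries lie above all vehicle libraries, and for Acot1 all 5 do.

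Pdk4 (ENSMUSG00000019577) codes for the kinase of the family that fasting and glucocorticoids induce most in muscle and liver. Its level was 14.1, 5.50, 8.33, 13.9 and 13.0 CPM in oxaliplatin replicates 1 to 5, and 2.70, 3.72, 5.54, 4.39 and 3.84 CPM in vehicle replicates 1 to 5. Oxaliplatin replicates 1, 4 and 5 stood well above every vehicle library and replicate 3 somewhat above, while replicate 2 lay just under vehicle replicate 3, so the groups overlapped by that pair. The means were 11.0 ± 3.85 CPM after oxaliplatin and 4.04 ± 1.04 CPM after vehicle (SD, n = 5 each). Pdk4 was 2.71-fold higher (95% interval 1.81 to 4.07), a log2 fold change of 1.44 ± 0.27 (SE) with an edgeR adjusted p of 0.0219. The direction held whichever library was left out, at 1.33 to 1.61. The edgeR adjusted p was 0.0565 without oxaliplatin replicate 4, 0.0629 without oxaliplatin replicate 5, 0.0627 without vehicle replicate 4 and 0.0679 without vehicle replicate 5, so the call was lost in 4 of 10 such fits.

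The promoter of Pdk4 is shown because it is the 1 gene of the family that was called, and that of Pdk2 because it is the family's most abundant member in this tissue. Both run from 250 bases before to 50 bases after the start of the gene (RefSeq, build GRCm38.p6, 5′ to 3′ on the gene's own strand), with each CG dinucleotide in capitals. For Pdk2 the first of the starts listed is used.
Pdk4, chr6:5496229-5496528, minus strand: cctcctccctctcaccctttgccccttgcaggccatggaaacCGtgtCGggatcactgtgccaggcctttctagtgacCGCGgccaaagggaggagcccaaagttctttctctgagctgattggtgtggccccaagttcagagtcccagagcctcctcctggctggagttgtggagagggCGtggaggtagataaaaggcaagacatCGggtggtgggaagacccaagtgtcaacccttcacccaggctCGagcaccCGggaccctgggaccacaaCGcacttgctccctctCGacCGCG
Pdk2, chr11:95041322-95041621, minus strand: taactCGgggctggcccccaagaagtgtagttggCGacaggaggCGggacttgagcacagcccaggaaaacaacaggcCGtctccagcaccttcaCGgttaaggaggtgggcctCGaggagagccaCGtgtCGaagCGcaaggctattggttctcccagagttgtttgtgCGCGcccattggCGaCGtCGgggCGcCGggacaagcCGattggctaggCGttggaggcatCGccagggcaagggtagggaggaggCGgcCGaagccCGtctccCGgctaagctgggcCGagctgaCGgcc

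The Pdk4 window held 12 CG dinucleotides, and 62.1% of the 32851 promoters in the table hold that many or fewer. The first Pdk2 window held 25, as did the first Pdk1 window, and the Pdk3 window 35, counts that 83.1% and 93.8% of promoters do not exceed. The second Pdk2 window held 13, close to Pdk4, and the second Pdk1 window 2, counts that 63.7% and 23.3% of promoters do not exceed. A set of 5 motifs was searched, by exact match of their letters, on both strands of the 10 windows found for 8 of the 9 genes. The full glucocorticoid receptor palindrome (0.00913% of all promoters), the PPAR direct repeat with a spacer of 1 base (0.0396%) and the FOXO motif GTAAACA (3.65%) were in none of these windows. The hypoxia core ACGTG, held by 19.6% of promoters, was in the first Pdk2 window and that of Pdk3. The glucocorticoid receptor core ACANNNTGT, held by 6.85% and contained in the full palindrome, was in the window of Acot1. Sites outside these windows, or with any fixed letter changed, were not searched.

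Pdk1 (ENSMUSG00000006494), the kinase that low oxygen induces, had 16.4, 11.1, 11.1, 15.6 and 12.4 CPM in oxaliplatin replicates 1 to 5 and 14.9, 13.6, 9.48, 10.4 and 8.93 CPM in vehicle replicates 1 to 5. The groups were mixed, with oxaliplatin replicates 1 and 4 and vehicle replicate 1 highest. The log2 fold change was 0.22 ± 0.16 (SE, edgeR adjusted p = 0.537), and its 95% interval of -0.11 to 0.55 leaves room for a rise of up to 1.47-fold. Pdk2 (ENSMUSG00000038967), the broadly expressed kinase, had 79.6, 72.5, 71.4, 80.5 and 88.9 CPM in oxaliplatin replicates 1 to 5 and 69.7, 76.1, 80.3, 69.0 and 62.4 CPM in vehicle replicates 1 to 5. Oxaliplatin replicate 5 was the highest library and vehicle replicate 5 the lowest, with the rest mixed. Its log2 fold change was 0.14 ± 0.08 (SE, edgeR adjusted p = 0.419), with a 95% interval of -0.03 to 0.30. Pdk3 (ENSMUSG00000035232), the kinase best known from brain and testis, ran from 18.3 to 26.6 CPM after oxaliplatin (median 19.7) and from 16.4 to 24.6 CPM after vehicle (median 22.7). Its log2 fold change was -0.03 ± 0.12 (SE, edgeR adjusted p = 0.935), with a 95% interval of -0.29 to 0.22, and its sign turned in 3 of 10 fits that left out a library.

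**Figure D2:**
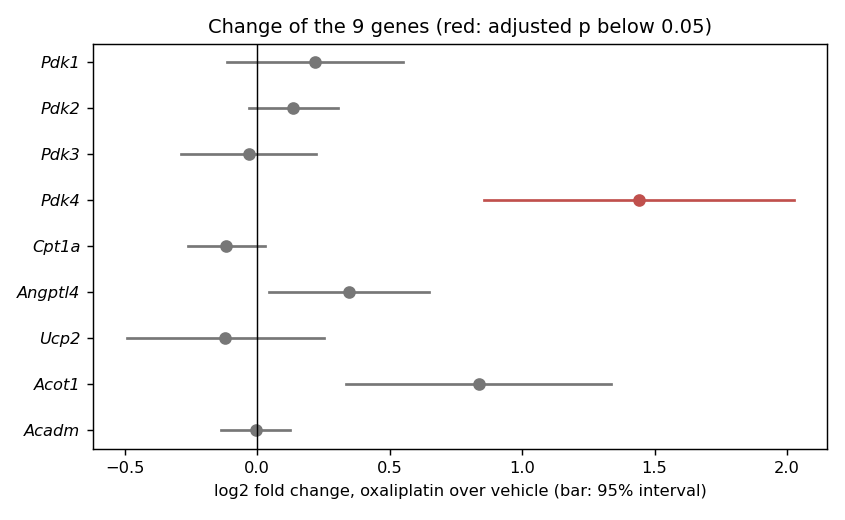
Log2 fold change of the 9 genes, oxaliplatin over vehicle (horizontal axis), with 95% intervals as bars; red marks an adjusted p below 0.05. Pdk4 stands at 1.44, Acot1 at 0.84 and Angptl4 at 0.35, and the intervals of the other 6 genes include 0.

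The make-up of Pdk RNA was compared within libraries, which does not depend on how libraries are scaled against each other. Levels between genes are given as CPM per kilobase of annotated exon (GENCODE M21). Pdk4 made up 10.2, 4.66, 7.08, 10.1 and 8.47% of the 4 genes' length-scaled level in oxaliplatin replicates 1 to 5 and 2.35, 2.97, 4.56, 3.70 and 3.47% in vehicle replicates 1 to 5. The lowest oxaliplatin share, in replicate 2, lay just above the highest vehicle share, in replicate 3, so the shares did not overlap. The mean share of Pdk4 was 8.10 ± 2.31% after oxaliplatin and 3.41 ± 0.826% after vehicle (SD, n = 5 each). Pdk2 stayed the main kinase, at 65.7 ± 1.99% after oxaliplatin and 67.1 ± 4.10% after vehicle. Pdk3 held 21.7 ± 1.59% and Pdk1 4.52 ± 0.688% after oxaliplatin, against 25.1 ± 4.44% and 4.37 ± 0.991% after vehicle, and both overlapped between groups. Per length, Pdk4 lay above Pdk1 in 5 of 5 oxaliplatin libraries and in 1 of 5 vehicle libraries. As a ratio of raw counts, Pdk4 over the sum of the other kinases averaged -3.45 ± 0.49 in log2 after oxaliplatin and -4.73 ± 0.39 after vehicle (SD, n = 5 each). These ratios are descriptions and were not tested.

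**Figure D3:**
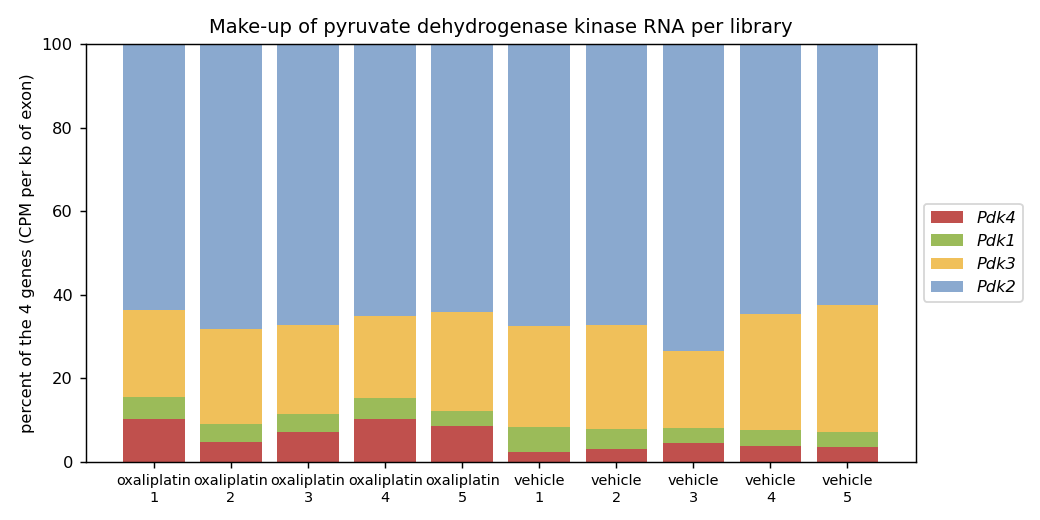
Share of each Pdk gene in the summed level of the 4 genes (vertical axis, percent of CPM per kilobase of exon) in each library, oxaliplatin left and vehicle right. Pdk4 (red) takes 4.66 to 10.2% after oxaliplatin and 2.35 to 4.56% after vehicle, and Pdk2 is the largest part in every library.

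Angptl4 (ENSMUSG00000002289) codes for a secreted protein that blocks lipoprotein lipase and so limits fat uptake in fasting. It had 17.0, 22.2, 23.0, 28.6 and 27.5 CPM in oxaliplatin replicates 1 to 5 and 18.1, 14.2, 19.0, 18.8 and 22.9 CPM in vehicle replicates 1 to 5. Oxaliplatin replicates 3, 4 and 5 lay above every vehicle library, replicate 3 by a small margin over vehicle replicate 5, and replicate 1, which was highest for Pdk4, lay below 4 of the 5 vehicle libraries. The log2 fold change was 0.35 ± 0.14 (SE, edgeR adjusted p = 0.235), and its 95% interval was 0.05 to 0.65. Dropping both oxaliplatin replicate 1 and vehicle replicate 5 gave 0.53, which passed (edgeR adjusted p = 0.0369). For Angptl4 these were the lowest oxaliplatin and the highest vehicle library, so dropping them widens the difference by construction. No fit that left out 1 library passed (edgeR adjusted p 0.116 to 0.455). With the muscle marker mean as a covariate, chosen after the data were seen, Angptl4 was at 0.08 (edgeR adjusted p = 0.829).

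Acot1 (ENSMUSG00000072949) codes for a cytosolic enzyme that splits long-chain acyl-CoA into free fatty acid and CoA. It was scarce, with 63, 94, 77, 129 and 89 counts in oxaliplatin replicates 1 to 5 and 39, 41, 57, 63 and 38 counts in vehicle replicates 1 to 5. In CPM these were 1.14, 1.61, 1.32, 2.08 and 1.49 after oxaliplatin and 0.705, 0.767, 1.02, 1.07 and 0.708 after vehicle. Every oxaliplatin library lay above every vehicle library, as groups without overlap in either direction did for 4.02% of all tested genes. The ratio of the groups was 1.79-fold (95% interval 1.26 to 2.52), a log2 fold change of 0.84 ± 0.24 (SE) that did not pass (edgeR adjusted p = 0.0802). It passed in DESeq2 (adjusted p = 0.0269), and the edgeR adjusted p was 0.0829 to 0.221 when 1 library was left out.

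Acot1 has near-identical relatives, so its reads can be split or lost in counting. Of its distinct 50-base stretches in GENCODE M21 transcripts, 19.2% also occur in another gene and 13.6% in Acot2, its mitochondrial counterpart. The same shares in other genes were 0 to 2.04% for the other 8 genes. Acot2 (ENSMUSG00000021226) stood at 18.9 ± 0.433 CPM after oxaliplatin and 16.9 ± 0.836 CPM after vehicle (SD, n = 5 each), also without overlap, at a log2 fold change of 0.16 ± 0.08 (SE, edgeR adjusted p = 0.302). The log2 ratio of Acot1 to Acot2 counts averaged -3.66 ± 0.32 after oxaliplatin and -4.33 ± 0.34 after vehicle, and the groups overlapped in it. The promoter of Acot1 is shown for the core motif named above (RefSeq, build GRCm38.p6, 5′ to 3′), which is in capitals.
Acot1, chr12:84009252-84009551, plus strand: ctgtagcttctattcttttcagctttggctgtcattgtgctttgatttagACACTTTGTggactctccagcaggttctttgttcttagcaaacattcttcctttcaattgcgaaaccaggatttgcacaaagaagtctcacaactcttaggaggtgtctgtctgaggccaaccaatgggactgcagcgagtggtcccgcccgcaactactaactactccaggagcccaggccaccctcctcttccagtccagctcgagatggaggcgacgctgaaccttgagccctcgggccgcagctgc
A match of these letters is a description of the sequence and not evidence of binding.

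Cpt1a, Acadm and Ucp2 did not pass the test, and the groups overlapped for each. Cpt1a (ENSMUSG00000024900), the gate for long-chain fatty acids into mitochondria, had 102, 98.1, 104, 96.1 and 93.6 CPM in oxaliplatin replicates 1 to 5 and 105, 122, 107, 109 and 92.9 CPM in vehicle replicates 1 to 5. All oxaliplatin libraries lay within the vehicle range. Its log2 fold change was -0.12 ± 0.07 (SE, edgeR adjusted p = 0.426), and the 95% interval of -0.26 to 0.03 does not reach a rise of more than 1.02-fold. Acadm (ENSMUSG00000062908), the dehydrogenase for medium-chain fatty acids, had 88.4, 79.9, 82.8, 77.9 and 87.4 CPM in oxaliplatin replicates 1 to 5 and 82.2, 80.1, 90.9, 85.3 and 79.5 CPM in vehicle replicates 1 to 5. Its log2 fold change was -0.01 ± 0.06 (SE, edgeR adjusted p = 0.979), with a sign that turned without a composition factor and an interval of 0.910 to 1.09-fold. Ucp2 (ENSMUSG00000033685), a carrier of the mitochondrial inner membrane linked to fat use, had 87.6, 133, 125, 82.7 and 110 CPM in oxaliplatin replicates 1 to 5 and 94.1, 94.7, 126, 124 and 146 CPM in vehicle replicates 1 to 5. Its spread within groups was wide, with a coefficient of variation of 20.7% after oxaliplatin and 19.2% after vehicle, and the groups overlapped. The log2 fold change was -0.12 ± 0.17 (SE, edgeR adjusted p = 0.795), with a 95% interval of -0.49 to 0.25.

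The 9 genes differed in how much they varied between libraries of 1 group. The coefficient of variation after oxaliplatin was 35.1% for Pdk4, 23.4% for Acot1, 20.7% for Ucp2, 19.6% for Angptl4 and 18.6% for Pdk1. It was 15.3% for Pdk3, 5.50% for Acadm and 4.36% for Cpt1a. After vehicle it was 25.8% for Pdk4, 23.0% for Pdk1, 20.7% for Acot1, 19.2% for Ucp2 and 16.7% for Angptl4. There Pdk3 was at 15.4%, Cpt1a at 9.60% and Acadm at 5.60%. Pdk2 lay between Pdk3 and Acadm in both groups. Ucp2, which was not called, varied more than Angptl4 in both groups. The spread of Acot1 rests on 38 to 129 counts per library. Per kilobase of exon, the order of mean levels after oxaliplatin was Pdk2 (24.8), Acadm (21.3), Ucp2 (15.4), Cpt1a (12.9), Pdk3 (8.23), Angptl4 (6.68), Pdk4 (3.12), Pdk1 (1.71) and Acot1 (0.390), in CPM per kilobase. After vehicle it was Pdk2 (22.6), Acadm (21.4), Ucp2 (16.8), Cpt1a (14.0), Pdk3 (8.41), Angptl4 (5.26), Pdk1 (1.47), Pdk4 (1.15) and Acot1 (0.218). After oxaliplatin the library ranges overlapped between Ucp2 and Cpt1a, between Pdk3 and Angptl4 and between Pdk4 and Pdk1. After vehicle they overlapped between Pdk2 and Acadm, Acadm and Ucp2, Ucp2 and Cpt1a, Pdk3 and Angptl4, and Pdk1 and Pdk4. Other neighbours in each order had separate ranges, apart from Pdk2 and Acadm after oxaliplatin, whose ranges met at 22.6. The order rests on exon lengths of an annotation that may not be the one used for counting.

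Markers of neighbouring tissues were read beside Pdk4, since fat cells and muscle make much Pdk4. The 10 adipocyte markers summed to 920 CPM in oxaliplatin replicate 1, to 185 to 243 CPM in the other oxaliplatin libraries and to 166 to 230 CPM after vehicle. The 8 tested adipocyte markers had a median log2 fold change of 2.27, with 7 above 0 and none past the test, and Lep was at 0 counts in at least 1 library. The fat cell protease Cfd reached 457 CPM in oxaliplatin replicate 1, where the remaining oxaliplatin libraries held 9.93 to 29.3 CPM, against 3.91 to 20.4 CPM after vehicle. Without oxaliplatin replicate 1 the log2 fold change of Pdk4 was 1.34 and kept its call (edgeR adjusted p = 0.0443). With the mean of the adipocyte markers as a covariate it was 1.19 (edgeR adjusted p = 0.0527). When vehicle replicate 5 was dropped as well as oxaliplatin replicate 1 it was 1.32 (edgeR adjusted p = 0.109).

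The 9 skeletal muscle markers summed to 859 CPM in oxaliplatin replicate 1 and to 18.2 to 37.9 CPM in oxaliplatin replicates 2 to 5, against 116 to 565 CPM after vehicle. The summed level was below every vehicle library in oxaliplatin replicates 2 to 5, and 8 of the 9 markers were below 0 (median log2 fold change -0.87), none past the test. With the mean of the muscle markers as a covariate, chosen after the data were seen, Pdk4 was at 1.66 (edgeR adjusted p = 0.0276). Some vessel markers were called higher, where 1.27% of all tested genes were. Of 8 endothelial markers Pecam1 (0.98 ± 0.18) and Cdh5 (0.69 ± 0.17) rose, and of 6 pericyte markers Kcnj8 (1.23 ± 0.21) and Abcc9 (0.98 ± 0.21) rose, on the log2 scale with SE (edgeR adjusted p = 0.0164, 0.0480, 0.0101 and 0.0248). The endothelial list summed to 109 to 133 CPM after oxaliplatin and 94.2 to 129 CPM after vehicle, and the pericyte list to 116 to 165 CPM after oxaliplatin and 102 to 133 CPM after vehicle. Of 5 satellite glia markers Glul rose (0.38 ± 0.08) and Fabp7 fell by 0.98 ± 0.18 (edgeR adjusted p = 0.0223 and 0.0298), with sums of 297 to 370 CPM after oxaliplatin and 387 to 511 CPM after vehicle. Of 5 fibroblast markers Pdgfra rose (0.62 ± 0.14, edgeR adjusted p = 0.0266), with sums of 770 to 975 CPM after oxaliplatin and 601 to 840 CPM after vehicle. The fibroblast markers were mixed, with 3 above 0 and 2 below, from -0.42 to 1.05. None of 7 Schwann cell, 9 neuron, 8 macrophage or 5 red blood cell markers passed. The fits with a covariate do not measure the part of fat cells or muscle in the Pdk4 difference. That part, and the part of vessels, glia and fibroblasts, was not tested.

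**Figure D4:**
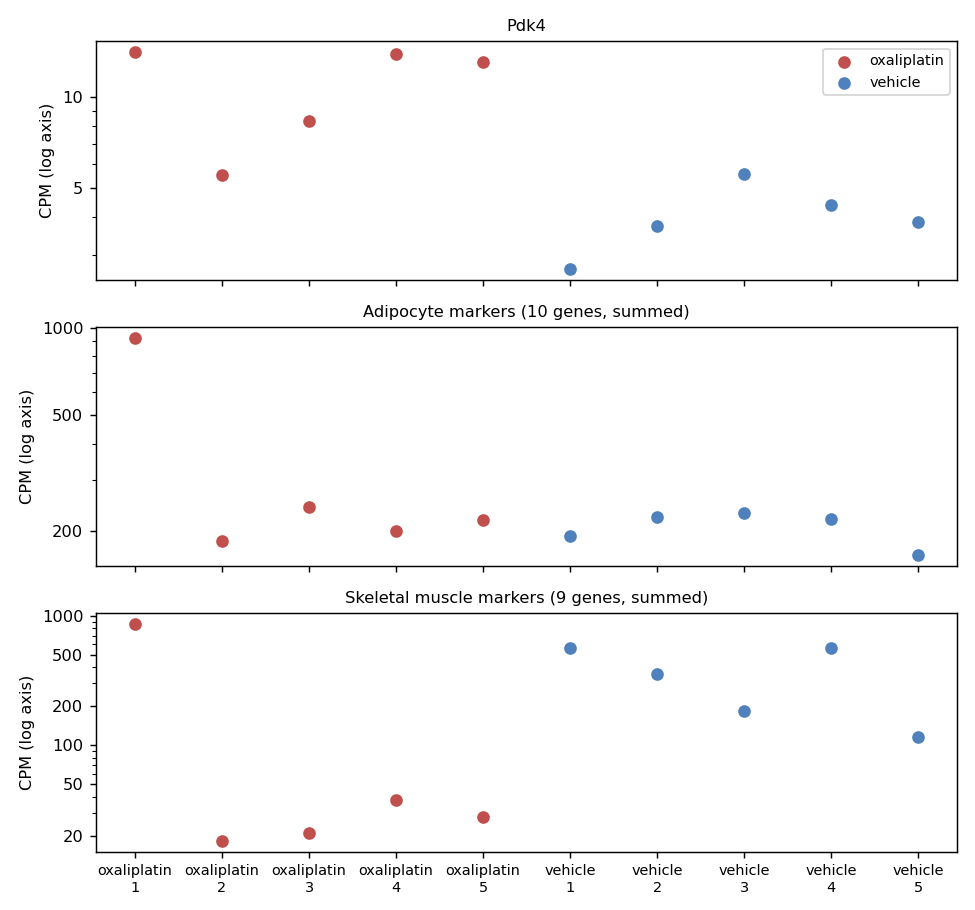
Level of Pdk4 and summed levels of adipocyte and skeletal muscle markers in each library, in CPM on log axes, oxaliplatin in red on the left and vehicle in blue on the right. Adipocyte markers are high in oxaliplatin replicate 1 (920 CPM). In oxaliplatin replicates 2 to 5 muscle markers are at 18.2 to 37.9 CPM and Pdk4 is at 5.50 to 13.9 CPM.

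Lists of related genes held 6 calls among 122 tested genes, 5 higher and 1 lower, or 4.92%, where 2.04% of all tested genes passed in either direction. Of the 6 calls 4 were in the list of glucocorticoid targets, and 7 of the 10 lists had none. For the complex that the Pdk kinases act on, 0 of 10 genes of the pyruvate dehydrogenase complex and pyruvate entry passed, at a median of -0.06, with the structural subunit Pdhx at -0.22 ± 0.07 (SE, edgeR adjusted p = 0.132). In the carnitine shuttle and mitochondrial beta-oxidation 0 of 17 tested genes rose and 1 fell. The gene that fell was Acadvl, the dehydrogenase for very long chains, at 133 ± 4.51 CPM after oxaliplatin and 156 ± 5.75 CPM after vehicle (SD, n = 5 each, no overlap). Its log2 fold change was -0.22 ± 0.05 (SE, edgeR adjusted p = 0.0362). It lost its call in 8 of 10 fits that left out a library, with edgeR adjusted p values up to 0.117, and kept it without oxaliplatin replicate 2 or vehicle replicate 3. The list's median was -0.10, with 16 of 17 genes below 0, and 13 of 17 without a composition factor in the scaling. That scaling called 0 genes of the list lower (Acadvl, adjusted p = 0.0683) and 1 higher, the neuronal carnitine palmitoyltransferase relative Cpt1c, at 0.23 (edgeR adjusted p = 0.0458). With the composition factor Cpt1c was at 0.19 ± 0.06 (SE, edgeR adjusted p = 0.0895).

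Ketone body genes had 0 of 5 calls (median -0.06). Peroxisomal and omega-oxidation targets of PPAR-alpha had 0 of 11 (median -0.10), with the carnitine octanoyltransferase Crot at -0.18 ± 0.06 (edgeR adjusted p = 0.144). Genes of fatty acid supply and activation had 0 of 16 (median -0.02), with the fatty acid binding protein Fabp3 at -0.21 ± 0.06 (edgeR adjusted p = 0.105). With the muscle covariate 4 genes of that list were called higher, namely Lpl, Cd36, Acsl1 and Pnpla2. In the main fit their edgeR adjusted p was 0.454, 0.588, 0.749 and 0.219. Lpl stood at 68.0 CPM in oxaliplatin replicate 1, the library high in fat cell markers. It was 9.04 to 11.5 CPM in the other oxaliplatin libraries and 6.91 to 12.6 CPM after vehicle. Pnpla2 was also highest in oxaliplatin replicate 1, at 167 CPM. Slc27a1 was called higher with the replicate block and without oxaliplatin replicate 3. Genes of malonyl-CoA, which blocks Cpt1a, and of AMP-activated kinase had 0 of 10 (median near 0), with the kinase subunit Prkag2 at -0.15 ± 0.06 (edgeR adjusted p = 0.203). None of 19 tested relatives of the 9 genes passed (median -0.07), with Angptl6 at -0.35 ± 0.09 (edgeR adjusted p = 0.0671). Each value given with ± in these lists is a log2 fold change with its SE.

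**Figure D5:**
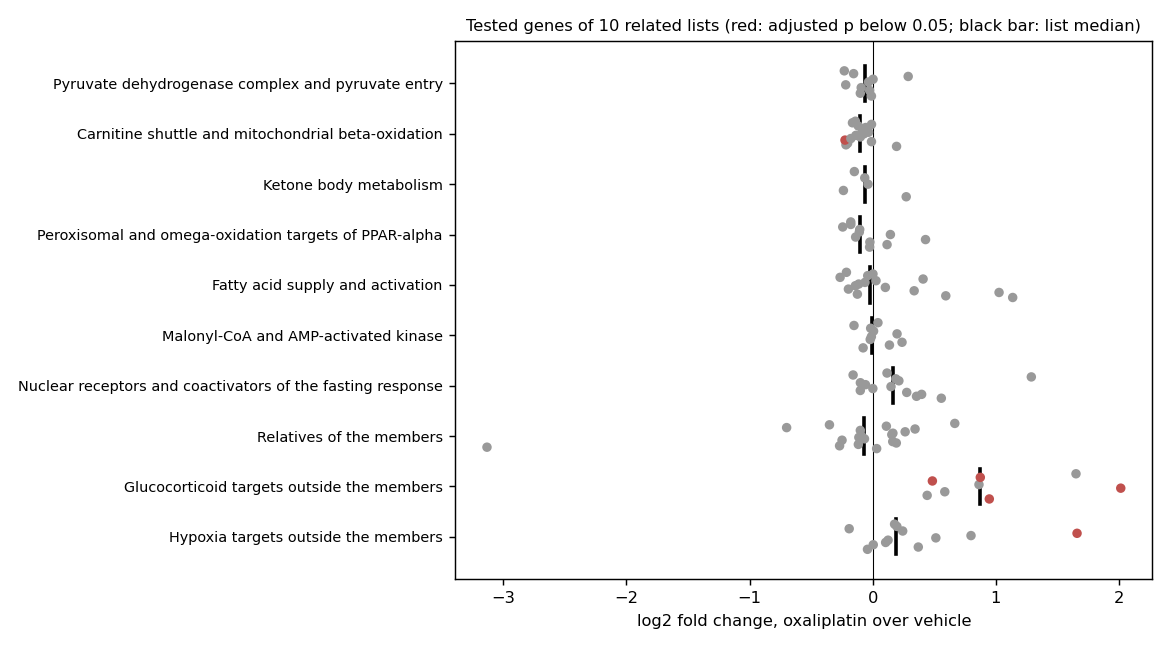
Log2 fold change, oxaliplatin over vehicle (horizontal axis), of each tested gene in 10 related lists (rows); red marks an adjusted p below 0.05 and the black bar is the list median. Acadvl is called lower, 4 genes of the glucocorticoid list and Adm are called higher, and the list of beta-oxidation has a median of -0.10.

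Among 14 nuclear receptors and coactivators of the fasting response 0 passed (median 0.17). The gene of smallest p was Klf15, a transcription factor that glucocorticoids induce and that raises fat use in muscle. It had 11.9, 4.84, 6.34, 9.56 and 12.4 CPM in oxaliplatin replicates 1 to 5 and 2.79, 2.62, 4.08, 3.08 and 5.89 CPM in vehicle replicates 1 to 5. As for Pdk4, replicate 2 was the lowest oxaliplatin library, and it lay within the vehicle range. The log2 fold change of Klf15 was 1.29 ± 0.30 (SE, edgeR adjusted p = 0.0562), and it passed in 8 of the 20 alternatives run. Ppara, the receptor PPAR-alpha itself and named after its value was seen, had 2.77 ± 0.782 CPM after oxaliplatin and 1.88 ± 0.653 CPM after vehicle (SD, n = 5 each), at a log2 fold change of 0.56 ± 0.25 (SE, edgeR adjusted p = 0.284).

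Glucocorticoid targets other than the 9 genes were the list with most calls, with 4 of 8 higher and 0 lower at a median of 0.87. Of all tested genes 1.27% were called higher. Over the alternatives 2 to 7 genes of the list were called higher, while the number among all tested genes ran from 58 to 516. The list of glucocorticoid targets was chosen with earlier results of these samples known. Its called genes were Zbtb16, Fkbp5, Cdkn1a and Klf9. Cdkn1a is also known to be induced by DNA damage, so its call is not particular to glucocorticoids. What raised it was not tested. Zbtb16, a transcription factor, had 16.0 ± 4.18 CPM after oxaliplatin and 3.96 ± 0.745 CPM after vehicle (SD, n = 5 each), at a log2 fold change of 2.02 ± 0.18 (SE, edgeR adjusted p = 0.00013). Fkbp5, a co-chaperone that holds the glucocorticoid receptor inactive, had 43.6, 22.8, 27.9, 37.5 and 37.4 CPM in oxaliplatin replicates 1 to 5 and 16.7, 17.3, 19.4, 15.5 and 18.7 CPM in vehicle replicates 1 to 5. Here too oxaliplatin replicates 2 and 3 were the lowest of their group and replicates 1, 4 and 5 the highest, which is the order Pdk4 showed. Replicates 2 and 3 were also the lowest oxaliplatin libraries for the hypoxia target Adm and the pericyte marker Kcnj8. They were so for 36.3% of the 234 genes called higher and 12.0% of all tested genes. The log2 fold change of Fkbp5 was 0.95 ± 0.15 (SE, edgeR adjusted p = 0.0082), and Zbtb16, Fkbp5 and Adm kept their calls in all 10 fits that left out a library. Klf9 lost its call in 6 of 10 fits that left out a library, and Cdkn1a in 4. Among 12 hypoxia targets 1, the vessel-dilating peptide Adm, rose (1.66 ± 0.22, edgeR adjusted p = 0.0015) and 0 fell, at a median of 0.19. The share of all tested genes called higher, 1.27%, is the background here too.

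Genes with a pattern like that of Pdk4 were sought by the root mean square difference of log2 CPM over the 10 libraries. Each gene was centred on its own mean. The search covered 12321 genes with a mean of at least 2 CPM, and left out predicted and clone names (Gm and Rik). The nearest were Cox4i2, a subunit of the respiratory chain (0.229 log2 units), Cyp26b1, which breaks down retinoic acid (0.245), and Dpep1, a membrane dipeptidase (0.252). The median gene was at 0.842. Cox4i2 had 6.97 ± 1.38 CPM after oxaliplatin and 2.95 ± 0.621 CPM after vehicle, Cyp26b1 4.96 ± 2.09 CPM after oxaliplatin and 1.93 ± 0.608 CPM after vehicle, and Dpep1 17.2 ± 7.64 CPM after oxaliplatin and 5.52 ± 1.23 CPM after vehicle (SD, n = 5 each). The edgeR adjusted p was 0.0040 for Cox4i2, 0.0316 for Cyp26b1 and 0.0543 for Dpep1. Each was lowest in replicate 2 among the oxaliplatin libraries and highest in replicate 3 among the vehicle libraries, as Pdk4 was. The genes were picked for likeness to Pdk4 over these same libraries, so a shared order is part of that choice. Among the other 8 genes of the switch Acot1 was nearest to Pdk4 (0.536) and Ucp2 farthest (0.954). The likeness includes the difference between the groups and was not tested.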

How the data were processed

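The authors deposited raw read counts per Ensembl gene, 1 column for each of the 10 libraries. The submitters' processing notes list the tools STAR (2.5.1a), Partek and DESeq2 without their roles. Not given in the sources used here: build, annotation and strandedness. Of 40757 rows, 276 repeats of an ID were dropped.

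Counts were tested with edgeR 4.0.16 (R 4.3.3): filterByExpr, TMM factors, a robust quasi-likelihood fit on group alone, and Benjamini-Hochberg adjustment over 18401 genes at 0.05. SE is the log2 fold change over the root of F, and intervals are at 95%. CPM uses TMM-scaled totals, and log2 CPM a prior count of 2. The fitted coefficient of variation between libraries was 19.3%. The test was checked on simulated counts. Libraries of a group differed by more than counting error (chi-square over degrees of freedom 12.8 to 53.6). Alternatives used DESeq2 1.42.0 and limma 3.58.1 among others. Genes named were the 9 members, up to 4 called genes of each list or else that of smallest p, Acot2 and the 3 genes most like a called member. A gene named by this rule is not reported here. Ppara, Cfd, Cpt1c, the called markers and genes called only under an alternative were picked with their values in view. Members and lists were chosen with earlier results of these data known.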

Additional observations from a re-analysis of the deposited data

Results flagged for a closer look

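In 66 groups of 5 libraries looked at (the 9 genes, the genes named by rule and the summed marker lists, each after oxaliplatin and after vehicle), 5 had a library far from the other 4 by Dixon's gap, where chance gives about 1 in 20. None was a value of the 9 genes. Summed adipocyte markers were at 920 CPM in oxaliplatin replicate 1, against 185 to 243 CPM in the other oxaliplatin libraries. Summed skeletal muscle markers were at 859 CPM in the same library, against 18.2 to 37.9 CPM. Summed red blood cell markers were at 693 CPM in oxaliplatin replicate 3, against 9.54 to 181 CPM. Summed endothelial markers were at 129 CPM in vehicle replicate 5, against 94.2 to 103 CPM in the other vehicle libraries. Cdkn1a was at 172 CPM in vehicle replicate 5, against 99.9 to 109 CPM.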

How the results depend on the processing

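The number of the 9 genes called higher was 1, and it was 2 in DESeq2 (Pdk4 and Acot1), 0 with the replicate block, 0 with the adipocyte covariate and 0 to 1 when 1 library was left out. No alternative called any of the 9 lower. The labels do not say whether same-numbered libraries belong together. Their correlations of deviations were -0.0379 to 0.212, with no differently numbered pairs set beside them, so pairing stays unknown. The replicate block gave Pdk4 1.39 (edgeR adjusted p = 0.0580). Over the 20 alternatives Pdk4 stayed at 1.19 to 1.66. Over all genes, 234 higher and 142 lower became 516 and 406 in DESeq2, 439 and 342 in limma voom, 382 and 278 with the replicate block, 58 and 23 with the adipocyte covariate, and 142 and 76 without oxaliplatin replicate 1 and vehicle replicate 5 together. They ran from 79 to 343 and from 34 to 251 when 1 library was left out. Among all calls, 62.2% were higher, against 75.4% without a composition factor and 52.3% with the muscle covariate. Signs turned near 0: Acadm to 0.029 without a composition factor, 0.037 with the muscle covariate and -0.025 to 0.032 when 1 library was left out; Pdk3 to 0.018 and Ucp2 to 0.038 without the pair of libraries, and Pdk3 to -0.13 to 0.020 when 1 was left out. The muscle covariate moved Pdk1 to 0.51 and Ucp2 to -0.39 (neither called). The cause of these shifts was not tested. The counts of Acot1 (38 to 129 per library) limit its precision.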
